A study of Mus musculus with 9 samples.

Results

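The necroptosis and pyroptosis executors described here are 10 mouse genes, namely Zbp1, Ripk1, Ripk3, Mlkl, Casp1, Casp4, Casp12, Gsdmd, Fas and Casp8. They were chosen by name and found in the count tables by their Ensembl identifiers, as 10 of 54532 identifiers, and all 10 were among the 16646 genes with enough reads to be tested. Their transcripts were followed in kidneys of 9 mice in 3 groups of 3. The groups were wild-type mice, Trex1-/- mice injected with vehicle and Trex1-/- mice injected with SN-011, an antagonist of STING. The labels call the vehicle PBS, and the study's methods describe it as PBS with Tween 80. The study's methods place all mice on the C57BL/6J background. The Trex1-/- mice were 1 month old at the start, and the vehicle or SN-011 at 10 mg/kg was injected intraperitoneally every day for 2 weeks. The Trex1-/- mice came from matings of heterozygous parents, whereas the wild-type mice were purchased, with an age at purchase given only as a range and no injection described for them, so that genotype, source, age and injection cannot be told apart in a comparison with the wild type. The mice lack Trex1 in every cell, and SN-011 was given to the whole animal.

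TREX1 is a DNA exonuclease of the cytosol, and without it self DNA activates the sensor cGAS, its adaptor STING and then type I interferon. Necroptosis is a lytic death in which the kinase RIPK3, brought together by RIPK1 or by the nucleic acid sensor ZBP1, phosphorylates the pseudokinase MLKL, which then permeabilises the plasma membrane. Pyroptosis is a lytic death in which inflammatory caspases cleave gasdermin D, whose freed part forms pores, while caspase-1 also matures interleukin-1 beta and interleukin-18. Caspase-8, recruited by the death receptor Fas, starts apoptosis and restrains necroptosis by cleaving RIPK1 and RIPK3.

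The libraries held 16118813 to 21928965 counts. Kidney markers were high in every library, with summed levels of 7080 to 9097 CPM (counts scaled to a common library size) for the 6 proximal tubule markers and 9761 to 12535 CPM for the 5 distal nephron markers. Trex1 had 0 counts in all 9 libraries, the wild type included, and all 1147 of its exonic bases are also annotated as exon of Atrip on the same strand, so the counts set no limit on its level and the genotypes rest on the labels. The labels give no sex. Y-linked transcripts (153 to 188 CPM) were found in all 3 Trex1-/- PBS libraries, in wild-type replicate 3 and in SN-011 replicate 2, while the other 4 libraries had Xist at 434 to 503 CPM and no more than 0.377 CPM of Y-linked transcripts. The sex of the PBS group is thus not matched in the other groups. Values within the libraries with Y-linked transcripts accompany the results of the 10 genes and the partners called in PBS against the wild type. They also accompany the leukocyte, macrophage, T and NK cell and distal nephron sums, but not the other marker sums. Nothing in the labels ties the replicates to litters or days, and p-values measure the spread between these animals.

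The 3 inflammatory caspase genes lie next to each other on chromosome 9 in the order Casp1, Casp4 and Casp12 (GRCm38 chr9:5298517-5307265, chr9:5308828-5336783 and chr9:5345430-5373032, all on the plus strand). Their upstream sequences are shown because Casp1 and Casp4 were called higher in Trex1-/- PBS kidneys and their neighbour Casp12 was not, a difference between genes that was not tested, and the sequence before Mlkl (chr8:111311797-111338177, minus strand) is shown beside them as that of the necroptotic pore. They are RefSeq sequences on GRCm38.p6, printed 5′ to 3′ in the direction of transcription and ending before the first annotated exon. Capitals mark matches to the kappaB consensus of NF-kappaB, in Casp4.
Casp1, chr9:5298267-5298516, plus strand: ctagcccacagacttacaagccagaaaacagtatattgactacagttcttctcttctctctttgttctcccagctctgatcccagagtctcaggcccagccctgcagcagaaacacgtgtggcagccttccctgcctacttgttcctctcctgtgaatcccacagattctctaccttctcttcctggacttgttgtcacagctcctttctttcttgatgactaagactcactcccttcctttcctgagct
Casp4, chr9:5308599-5308827, plus strand: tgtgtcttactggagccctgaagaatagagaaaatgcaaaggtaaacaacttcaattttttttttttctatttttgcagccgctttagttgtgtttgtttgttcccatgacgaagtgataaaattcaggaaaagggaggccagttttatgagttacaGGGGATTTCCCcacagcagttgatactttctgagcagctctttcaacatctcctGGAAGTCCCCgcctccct
Casp12, chr9:5345226-5345429, plus strand: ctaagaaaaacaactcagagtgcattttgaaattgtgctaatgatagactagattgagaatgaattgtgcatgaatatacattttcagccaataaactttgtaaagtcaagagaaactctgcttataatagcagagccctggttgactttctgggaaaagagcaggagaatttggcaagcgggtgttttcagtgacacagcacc
Mlkl, chr8:111338206-111338455, minus strand: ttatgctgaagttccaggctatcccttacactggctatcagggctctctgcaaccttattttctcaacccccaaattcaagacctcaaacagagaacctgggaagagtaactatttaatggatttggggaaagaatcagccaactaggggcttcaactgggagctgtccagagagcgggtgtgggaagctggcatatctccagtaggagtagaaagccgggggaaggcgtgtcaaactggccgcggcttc
RefSeq promoter entries were used for 8 of the 10 genes, and Zbp1 and Gsdmd were not analysed for sequence. The 250 bases before each start were searched on both strands for 2 motifs. The first was the core of the interferon-stimulated response element (GAAA, any 2 bases, then GAAA), which 2.98% of all 32851 promoter windows hold. It was present in the windows of 0 of the 8 genes. The second was the kappaB consensus, held by 7.25% of all windows, which matched at 2 separate stretches of Casp4, by 4 matches that partly overlap one another, and in the windows of none of the other 7 genes. A match here describes the letters of the window, and the kappaB consensus was searched after the sequences had been seen.

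Per length, the 10 genes were of low to moderate abundance, and their order differed between the groups. Levels between genes were set side by side as RPKM, that is CPM per kilobase of annotated exon. In the wild type Casp8 was at 8.83 ± 0.563 RPKM (SD, n = 3), Fas at 5.24 ± 1.10, Ripk1 at 3.80 ± 0.0319 and Gsdmd at 2.66 ± 0.305, and the libraries of these neighbours in the order did not overlap. Below them followed Mlkl (1.20 ± 0.369 RPKM), Zbp1 (1.14 ± 0.450), Casp12 (0.826 ± 0.257), Casp1 (0.610 ± 0.214), Ripk3 (0.508 ± 0.160) and Casp4 (0.398 ± 0.0614), each overlapping with the next. In Trex1-/- PBS kidneys Zbp1 stood in second place at 7.38 ± 1.76 RPKM, above Fas (4.92 ± 0.471) and below Casp8 (10.7 ± 0.101), without overlap with either. Casp1 stood at 2.88 ± 0.246 RPKM there, with libraries that overlapped those of Mlkl (2.39 ± 0.212), and Ripk3 was lowest at 0.862 ± 0.0603. In SN-011 kidneys Zbp1 was at 3.73 ± 1.17 RPKM and overlapped with both Ripk1 (4.45 ± 0.323) and Gsdmd (3.27 ± 0.340).

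Trex1-/- PBS kidneys were compared with wild-type kidneys to ask how the loss of TREX1 relates to the transcripts of the death machinery. Zbp1, Casp1 and Casp4 rose, by 6.54-fold, 4.71-fold and 3.42-fold, and no member fell. By edgeR's quasi-likelihood test with Benjamini-Hochberg adjustment over all tested genes, these 3 of 10 members passed an adjusted p of 0.05, all upward, where 1.88% of all tested genes passed in either direction and 1.44% passed upward. The PBS and wild-type libraries did not overlap for 8 of 10 members, all higher in PBS, against 25.4% of all tested genes in either direction. The median log2 fold change of the 10 members was 0.80, beside 0.0028 over all tested genes.

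**Figure D1:**
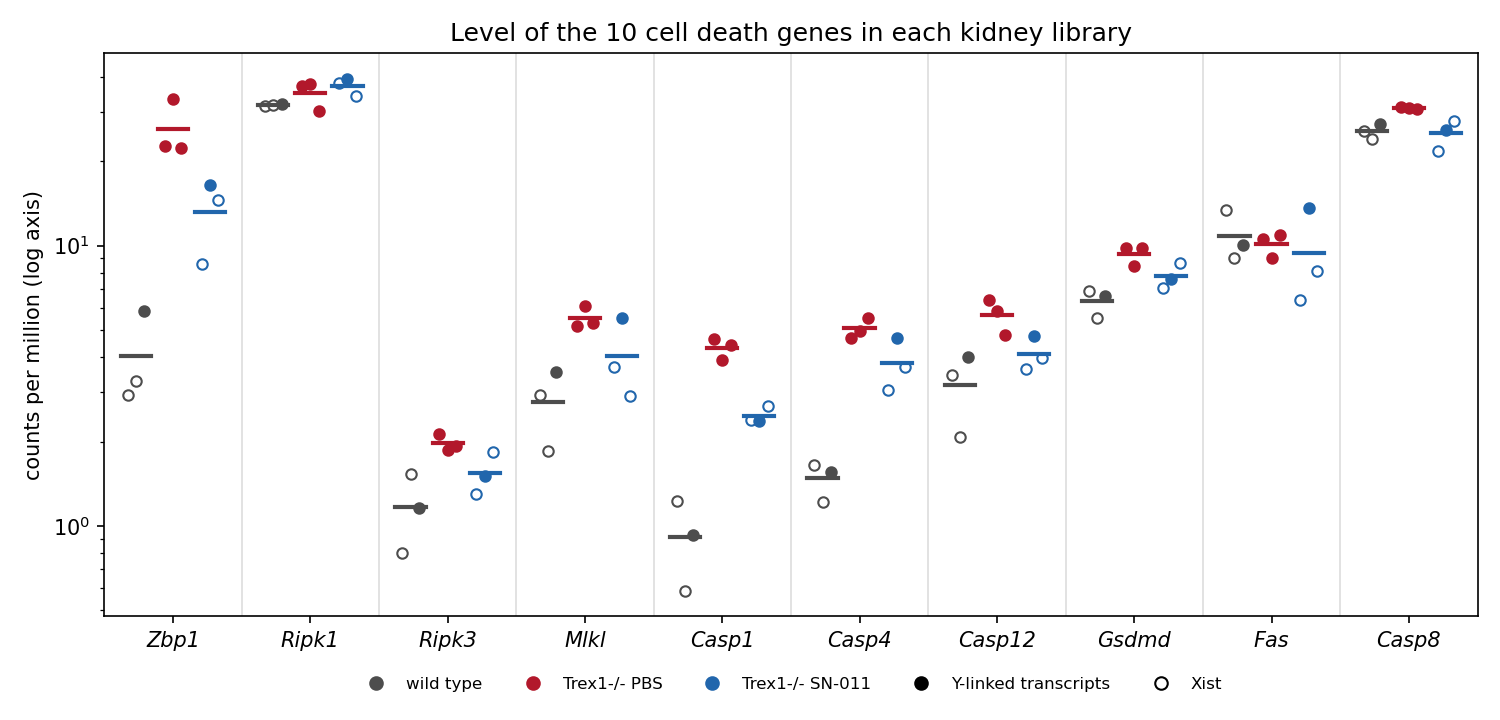
Level of each of the 10 genes in CPM (log axis) in 9 kidney libraries, with points for libraries and bars for group means, filled where Y-linked transcripts and open where Xist was found. Zbp1, Casp1 and Casp4 are higher in all 3 Trex1-/- PBS libraries than in any wild-type library, with SN-011 libraries between the wild type and the highest PBS library, while Fas overlaps between all groups.

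Among the necroptosis genes, Zbp1 (chr2:173206612-173218923, minus strand), which senses left-handed nucleic acid and recruits RIPK3, had 2.92, 3.30 and 5.84 CPM in wild-type replicates 1, 2 and 3. In Trex1-/- PBS it had 22.7, 33.2 and 22.3 CPM. Every PBS library lay above every wild-type library, by a wide margin. The log2 fold change was 2.71 (standard error 0.313, 95% interval 2.01 to 3.40, edgeR adjusted p = 0.00130). Among libraries with Y-linked transcripts, where wild-type replicate 3 stands alone, it was 2.15 (edgeR adjusted p = 0.00899).

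Mlkl, the membrane-permeabilising pseudokinase, had 2.92, 1.85 and 3.53 CPM in the wild type and 5.18, 6.07 and 5.28 CPM in Trex1-/- PBS. All 3 PBS libraries were above the wild type, but the log2 fold change of 1.0 (SE 0.286) had an edgeR adjusted p of 0.129. It passed the threshold with DESeq2's Wald test (adjusted p = 0.0307), with edgeR's exact test (0.0383), with no filter on low counts (0.0417) and without SN-011 replicate 2 (0.0449). Within the libraries carrying Y-linked transcripts the log2 fold change of Mlkl was 0.64 (edgeR adjusted p = 0.335) with wild-type replicate 3, the highest of its group, as the only wild-type library.

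Ripk3 (chr14:55784995-55788865, minus strand), the kinase that joins the sensors to MLKL, was the scarcest member by reads, with 249 counts over the 9 libraries. It had 0.802, 1.54 and 1.16 CPM in the wild type and 2.13, 1.87 and 1.93 CPM in Trex1-/- PBS. These groups did not overlap, with a log2 fold change of 0.76 (SE 0.290, edgeR adjusted p = 0.253). Ripk1 (chr13:34002363-34037147, plus strand), the kinase on which death receptor signals and survival signals meet, had the most reads of the 10 genes. It had 31.4, 31.7 and 31.9 CPM in the wild type and 37.1, 37.7 and 30.1 CPM in Trex1-/- PBS. Its groups overlapped, and the 95% interval of its log2 fold change ran from -0.09 to 0.37. Of the exonic bases of Ripk1, 6.1% are shared with the transcript Gm17084 on its own strand and 2.9% with Serpinb6a on the other, and the strand setting of the counting is not given in the sources used here. Within the libraries carrying Y-linked transcripts the log2 fold changes were 0.77 for Ripk3 and 0.13 for Ripk1. The other 9 members share no exonic base with another annotated gene.

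Of the pyroptosis genes, Casp1, the caspase of the canonical inflammasome, had 1.23, 0.587 and 0.926 CPM in the wild type, which rested on 26, 13 and 16 counts. In Trex1-/- PBS it had 4.63, 3.91 and 4.41 CPM. Every PBS library exceeded every wild-type library, with a log2 fold change of 2.24 (SE 0.269, 95% interval 1.64 to 2.83, edgeR adjusted p = 0.00164). Casp4, the caspase that binds cytosolic lipopolysaccharide and cleaves gasdermin D directly, had 1.65, 1.22 and 1.56 CPM in the wild type and 4.69, 4.96 and 5.53 CPM in Trex1-/- PBS. These groups also stood apart, with a log2 fold change of 1.77 (SE 0.229, 95% interval 1.27 to 2.28, edgeR adjusted p = 0.00244). Among libraries with Y-linked transcripts, the log2 fold changes were 2.21 for Casp1 (edgeR adjusted p = 0.0175) and 1.69 for Casp4 (0.0306).

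Casp12, the third caspase of the cluster and one tied to stress of the endoplasmic reticulum, had 3.44, 2.08 and 3.99 CPM in the wild type and 6.39, 5.84 and 4.79 CPM in Trex1-/- PBS. Its groups did not overlap, but its log2 fold change of 0.85 (SE 0.250) had an edgeR adjusted p of 0.139. Gsdmd (chr15:75862327-75867408, plus strand), which encodes the pore-forming gasdermin D, had 6.88, 5.51 and 6.60 CPM in the wild type and 9.80, 8.47 and 9.76 CPM in Trex1-/- PBS. The PBS libraries were again all above the wild type, with a log2 fold change of 0.56 (SE 0.151, edgeR adjusted p = 0.104). With DESeq2's Wald test both genes passed the threshold, at adjusted p = 0.0493 for Casp12 and 0.0483 for Gsdmd. The log2 fold changes within libraries carrying Y-linked transcripts were 0.505 for Casp12 and 0.499 for Gsdmd.

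The death receptor and its caspase were not called. Fas (chr19:34290666-34327772, plus strand) had 13.3, 9.03 and 10.01 CPM in the wild type and 10.5, 9.05 and 10.9 CPM in Trex1-/- PBS. These libraries overlapped, and the 95% interval of the log2 fold change ran from -0.66 to 0.48. Casp8 (chr1:58795374-58847503, plus strand) had 25.5, 23.9 and 27.2 CPM in the wild type and 31.3, 30.8 and 30.8 CPM in Trex1-/- PBS. Its groups did not overlap, but the difference was small, with a log2 fold change of 0.28 (SE 0.105, edgeR adjusted p = 0.248). Among libraries with Y-linked transcripts the log2 fold changes were 0.018 for Fas, of the other sign, and 0.19 for Casp8.

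SN-011 kidneys were compared with PBS kidneys of the same genotype to ask how the death genes stood after STING was antagonised. 9 of the 10 members had a lower fitted level in SN-011 than in PBS, with a median log2 fold change of -0.38 beside -0.0053 over all tested genes, but 0 members were called. The percentage of all tested genes called by edgeR's quasi-likelihood test was 0 as well, but it rested on single libraries, since 519 genes were called without SN-011 replicate 2 and 22 without SN-011 replicate 3, with 0 members among them in both. At an unadjusted p under 0.05 edgeR gave 3 of the 10 members, Zbp1, Casp1 and Casp8, where 11.4% of all tested genes had such a p, and DESeq2's Wald test and edgeR's exact test called 0 members while calling 183 and 127 of all genes. The SN-011 libraries lay below all PBS libraries for 5 of 10 members, Zbp1, Ripk3, Casp1, Casp12 and Casp8, where 16.1% of all tested genes did not overlap in either direction.

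Zbp1 had 8.56, 16.5 and 14.5 CPM in SN-011 replicates 1, 2 and 3, all below the lowest PBS library. The log2 fold change was -0.98 (SE 0.287, 95% interval -1.62 to -0.35, edgeR adjusted p = 0.278). It passed the threshold under 1 of 17 alternatives, when no filter on low counts was used (edgeR adjusted p = 0.0340). SN-011 replicate 2, which alone in its group carried Y-linked transcripts as the PBS libraries do, gave a log2 fold change of -0.64 (edgeR adjusted p = 0.267).

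Casp1 had 2.38, 2.38 and 2.67 CPM in SN-011 kidneys, close together and below every PBS library, with a log2 fold change of -0.80 (SE 0.248, 95% interval -1.35 to -0.25, edgeR adjusted p = 0.289). Casp4 had 3.06, 4.69 and 3.68 CPM, and replicate 2 reached into the PBS range. Its log2 fold change was -0.41 (95% interval -0.88 to 0.07), and -0.084 with only the libraries carrying Y-linked transcripts. Casp12 had 3.63, 4.75 and 3.98 CPM, the highest of which was just under the lowest PBS library, and Gsdmd had 7.08, 7.59 and 8.67 CPM, which overlapped with PBS. The 95% intervals of the log2 fold change were -1.01 to 0.09 for Casp12 and -0.60 to 0.07 for Gsdmd. Among libraries with Y-linked transcripts the log2 fold changes were -0.84 for Casp1, -0.23 for Casp12 and -0.27 for Gsdmd.

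Mlkl had 3.68, 5.51 and 2.91 CPM in SN-011 kidneys, where replicate 2 was within the PBS range and the other two were below it. Its log2 fold change was -0.45 (95% interval -1.07 to 0.17), and with only the libraries carrying Y-linked transcripts it was 0.021, of the other sign. Ripk3 had 1.30, 1.51 and 1.84 CPM, below the PBS libraries by little, with a 95% interval of -0.99 to 0.29. Ripk1 was the one member with a higher fitted level, with 37.9, 39.4 and 34.1 CPM and a 95% interval of -0.14 to 0.32, and its sign turned without PBS replicate 3. Casp8 had 21.7, 25.9 and 27.9 CPM, all below PBS, with a log2 fold change of -0.30 (SE 0.106, edgeR adjusted p = 0.327). Fas had 6.40, 13.6 and 8.13 CPM in SN-011 kidneys, on both sides of the PBS range, and a 95% interval of -0.69 to 0.46. With only the libraries carrying Y-linked transcripts, the log2 fold changes were -0.37 for Ripk3, 0.19 for Ripk1, -0.24 for Casp8 and 0.44 for Fas, the last of the other sign.

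**Figure D2:**
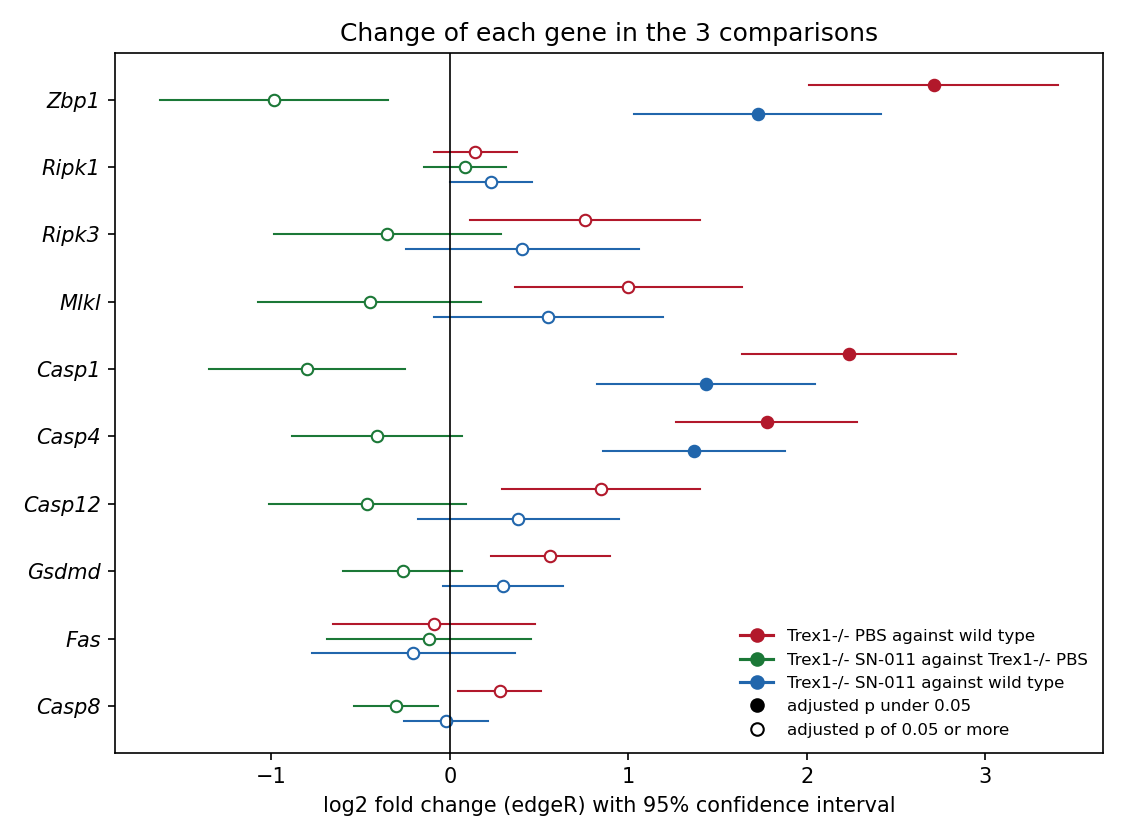
Log2 fold change of the 10 genes (points) with 95% confidence intervals (lines) in the 3 comparisons, filled where the edgeR adjusted p was under 0.05. Zbp1, Casp1 and Casp4 have intervals above 0 in both comparisons with the wild type, and for SN-011 over PBS the intervals of Zbp1, Casp1 and Casp8 lie below 0 with adjusted p of 0.278, 0.289 and 0.327.

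SN-011 kidneys were also set against the wild type, a comparison that shares libraries with both others. Zbp1, Casp1 and Casp4 were higher than in the wild type after SN-011, by 3.30-fold, 2.71-fold and 2.58-fold. These 3 of 10 members were called, all upward, where 1.28% of all tested genes were called in either direction and 0.823% upward. The SN-011 libraries lay above all wild-type libraries for 5 of 10 members, Zbp1, Ripk1, Casp1, Casp4 and Gsdmd, against 21.7% of all tested genes in either direction. The log2 fold changes were 1.72 for Zbp1 (SE 0.312, edgeR adjusted p = 0.0308), 1.44 for Casp1 (SE 0.274, 0.0381) and 1.37 for Casp4 (SE 0.230, 0.0237).

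These 3 calls depended on which libraries were in the fit. None of them held when only the 6 libraries of the 2 groups were fitted, nor without wild-type replicate 1, wild-type replicate 2 or PBS replicate 1, and 1 held without PBS replicate 2, PBS replicate 3 or SN-011 replicate 3, and 2 held without wild-type replicate 3 or SN-011 replicate 1. The sizes moved less than the calls, with ranges over 18 alternatives of 1.51 to 2.07 for Zbp1, 1.19 to 1.72 for Casp1 and 1.18 to 1.60 for Casp4. Among libraries with Y-linked transcripts, where 1 SN-011 library stood against 1 wild-type library and the spread came from the PBS libraries alone, the log2 fold changes were 1.51 (edgeR adjusted p = 0.0548), 1.37 (0.118) and 1.60 (0.0523) for Zbp1, Casp1 and Casp4, and among those with Xist they were 1.88 (0.0165), 1.48 (0.132) and 1.23 (0.108). The remaining 7 members were not called, with log2 fold changes from -0.21 for Fas to 0.55 for Mlkl, and from -0.051 for Casp8 to 0.66 for Mlkl among libraries with Y-linked transcripts.

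Summed markers of leukocytes, macrophages and T and NK cells were also higher in every Trex1-/- PBS library than in any wild-type library. In bulk kidney RNA, more cells of a type and more RNA per cell cannot be told apart. The 4 leukocyte markers summed to 45.4 to 60.1 CPM in the wild type, 84.6 to 98.0 CPM in PBS and 50.7 to 80.6 CPM in SN-011, and of the 4 genes 1 was called in PBS against the wild type, where 1.88% of all tested genes were called in either direction. The 9 macrophage and myeloid markers summed to 178 to 213, 288 to 326 and 170 to 268 CPM in the same order, with 3 of 9 called. The 9 T and NK cell markers summed to 7.40 to 11.5, 19.7 to 32.8 and 9.86 to 22.1 CPM, with 2 of 8 tested genes called. In the libraries with Y-linked transcripts, the leukocyte sum was 60.1 CPM in wild-type replicate 3 and 80.6 CPM in SN-011 replicate 2, the macrophage sum 213 and 268 CPM, and the T and NK cell sum 11.3 and 22.1 CPM, with the PBS ranges as above. By edgeR's test within those 5 libraries, 0 tested markers of any list were called in PBS against the wild type. Neutrophil markers (1.13 to 5.38, 3.33 to 8.10 and 4.25 to 9.79 CPM) overlapped between the groups, as did B cell markers (2.17 to 3.88, 1.75 to 2.42 and 0.963 to 2.61 CPM), and 0 markers of these lists were at 0 in all libraries.

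Of the kidney markers, 1 of 6 proximal tubule genes and 0 of 5 distal nephron genes were called in PBS against the wild type. The distal nephron sum was 9761 to 10503 CPM in PBS, below the wild-type range of 10919 to 12535 CPM, and 10167 to 11186 CPM in SN-011. It was also lower in every library with Y-linked transcripts (9761 to 10919 CPM) than in any with Xist (11062 to 12535 CPM), whatever their group. Of the 5 distal nephron genes, Umod (log2 fold change -0.19) and Slc12a1 (-0.42) were lower in every PBS library, while Calb1 had a value of the other sign (0.21). Slc12a1 had 1641 to 1913 CPM in the 5 libraries with Y-linked transcripts. In the 4 with Xist it had 2297 to 2807 CPM, whatever their group. The proximal tubule sum overlapped between the groups, but 4 of its 6 genes were lower in every PBS library than in any wild-type library, where 25.4% of all tested genes did not overlap in either direction. 1 of them, the glucose transporter gene Slc5a2, was called lower (log2 fold change -0.71, SE 0.126, edgeR adjusted p = 0.0163), but not in the libraries with Y-linked transcripts alone (-0.59, edgeR adjusted p = 0.0780). Another of the 4 lower genes, Slc5a12, had 95.7 to 146 CPM in the libraries with Y-linked transcripts. It had 156 to 205 CPM in those with Xist, whatever their group. Of the remaining proximal tubule genes, Slc34a1 overlapped (0.04). The organic anion transporter gene Slc22a6 had 632 to 907 CPM in the 5 libraries with Y-linked transcripts. In the 4 with Xist it had 317 to 368 CPM, whatever their group.

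In SN-011 replicate 1 the leukocyte sum (50.7 CPM) lay within the wild-type range and the macrophage sum (170 CPM) just below it, while Zbp1 (8.56 CPM), Casp1 (2.38 CPM) and Casp4 (3.06 CPM) of that library were above all wild-type libraries. In SN-011 replicates 2 and 3 the leukocyte sums were higher, at 80.6 and 79.2 CPM. Zbp1 was at 16.5 and 14.5 CPM there, Casp1 at 2.38 and 2.67 CPM and Casp4 at 4.69 and 3.68 CPM. The summed level of 8 interferon-induced reference genes was 103 to 140 CPM in the wild type, 653 to 919 CPM in PBS and 286 to 442 CPM in SN-011. The part of immune cells, kidney cells or interferon in the levels of the death genes was not tested.

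**Figure D3:**
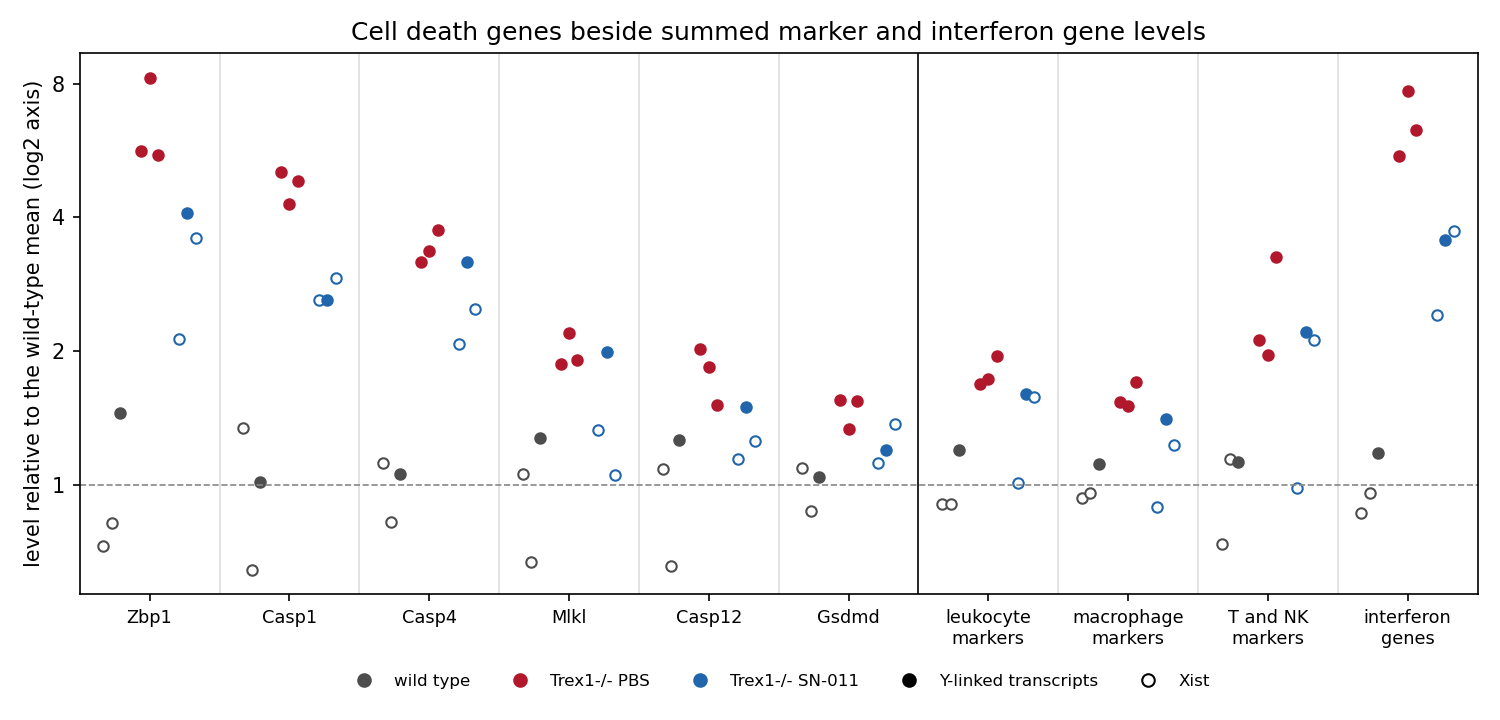
Levels of 6 of the genes and of 4 summed gene lists in each library relative to the wild-type mean (log2 axis, dashed line at 1), filled where Y-linked transcripts and open where Xist was found. Zbp1, Casp1, Casp4 and the interferon genes are further above the wild type in Trex1-/- PBS than the leukocyte and macrophage sums are, the T and NK marker sum reaches the range of Casp4 in 1 PBS library, and SN-011 replicate 1 has leukocyte and macrophage sums near the wild type.

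Across the 9 libraries, Zbp1, Casp1 and Casp4 followed one another closely. Pearson's r of log2 CPM was 0.96 between Casp1 and Casp4, 0.95 between Zbp1 and Casp4 and 0.91 between Zbp1 and Casp1, as a description over libraries that share their groups. Among 14841 genes with a mean of at least 1 CPM, those most like Zbp1 were Parp9, Trim30d and Xaf1, with r of 0.998, 0.995 and 0.995. The genes most like Casp4 were Ms4a4d (0.997), Tgtp2 (0.989) and Ifi213 (0.986). Casp1 was followed less tightly, by Oas3 (0.971), Phf11b (0.968) and Fbxw17 (0.967). Among other pairs, Mlkl and Casp12 had an r of 0.92, Casp1 and Gsdmd 0.95, and Fas had an r between -0.24 (with Ripk3) and 0.33 (with Casp8) with the other 9 members.

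The genes that work with the executors were examined as 4 lists of 82 genes in all, 68 of them tested. In Trex1-/- PBS against the wild type 5 of 68 rose and 0 fell, where 1.88% of all tested genes were called in either direction and 1.44% upward, with a median log2 fold change of 0.08. The count of called partners was 2 when only libraries with Y-linked transcripts were fitted, and also without wild-type replicate 1, wild-type replicate 2, PBS replicate 1 or PBS replicate 2. Within the libraries with Y-linked transcripts, Il18bp (log2 fold change 1.01, edgeR adjusted p = 0.0486) and Tnfsf10 (0.90, 0.0312) were called. Adar (1.09, edgeR adjusted p = 0.0529), Rnf31 (0.50, 0.252) and Naip5 (1.25, 0.129) were not called there. Adar, which edits double-stranded RNA and thereby limits what ZBP1 can bind, had 32.4, 30.8 and 31.2 CPM in the wild type and 65.6, 80.3 and 53.9 CPM in PBS, a log2 fold change of 1.08 (SE 0.127, edgeR adjusted p = 0.00141). Rnf31, the catalytic subunit of the linear ubiquitin ligase that acts on RIPK1 complexes, rose by a log2 fold change of 0.49 (SE 0.0945, edgeR adjusted p = 0.0284). These were 2 of 19 tested necroptosis partners, and the other 17 had log2 fold changes of -0.09 to 0.33.

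Of 18 tested inflammasome and pyroptosis partners, 2 rose. Naip5, a sensor of flagellin that is one of several near-identical Naip genes and therefore uncertain, had 1.27, 0.948 and 1.504 CPM in the wild type and 3.96, 3.56 and 3.23 CPM in PBS (log2 fold change 1.53, SE 0.295, edgeR adjusted p = 0.0268). Il18bp, the secreted decoy of interleukin-18, had 10.5, 10.4 and 8.39 CPM against 16.4, 19.0 and 15.3 CPM (0.79, SE 0.136, 0.0141). The adaptor gene Pycard was at 9.37 to 11.1 CPM in the wild type and 8.40 to 12.4 CPM in PBS, and the sensor gene Nlrp3 was at 0.452 to 0.707 and 0.759 to 1.40 CPM. The cytokine substrates of caspase-1 were scarce, with Il1b at 0.613 to 1.56 and 0.994 to 1.40 CPM and Il18 at 0.768 to 1.27 and 1.24 to 1.46 CPM. Neither they nor Pycard, Nlrp3 and the gasdermin gene Gsdme (18.2 to 22.7 and 21.3 to 28.2 CPM) were called.

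Of 10 tested death receptor partners, 1 rose. Tnfsf10, which encodes the death ligand TRAIL, had 42.2, 49.9 and 58.1 CPM in the wild type and 105, 121 and 98.4 CPM in PBS (log2 fold change 1.11, SE 0.170, edgeR adjusted p = 0.00705). Fasl, the ligand of Fas, was at no more than 0.559 CPM in any library and Tnf at no more than 0.934 CPM, and both had too few reads to be tested. Fadd, the adaptor between Fas and caspase-8, was at 16.3 to 17.4 CPM in the wild type, 18.3 to 21.8 CPM in PBS and 11.9 to 14.7 CPM in SN-011. It was the partner with the smallest adjusted p in SN-011 against PBS, at 0.203 by edgeR, with a log2 fold change of -0.57 (SE 0.114). Cflar, which encodes a catalytically dead relative of caspase-8 that restrains it, was at 137 to 139, 145 to 171 and 164 to 207 CPM in the 3 groups. Of the 21 tested mitochondrial apoptosis genes, 0 were called by edgeR and 7 had an unadjusted p under 0.05 in PBS against the wild type, where 15.2% of all tested genes did.

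In SN-011 against PBS edgeR called 0 of the 68 partners, 10 had an unadjusted p under 0.05 (11.4% of all tested genes did), edgeR's exact test called 1 and DESeq2's Wald test 2. Tnfsf10 was at 52.1, 79.3 and 77.0 CPM after SN-011, below every PBS library, with a log2 fold change of -0.64 (SE 0.168, edgeR adjusted p = 0.246). Adar was at 52.0, 54.0 and 50.5 CPM, near or below the lowest PBS library. In SN-011 against the wild type 1 of the 68 partners was called, where 1.28% of all tested genes were called in either direction. It was Adar, with a log2 fold change of 0.73 (SE 0.127, edgeR adjusted p = 0.0268). No partner was called without any one of the 3 wild-type replicates or without PBS replicate 1.

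**Figure D4:**
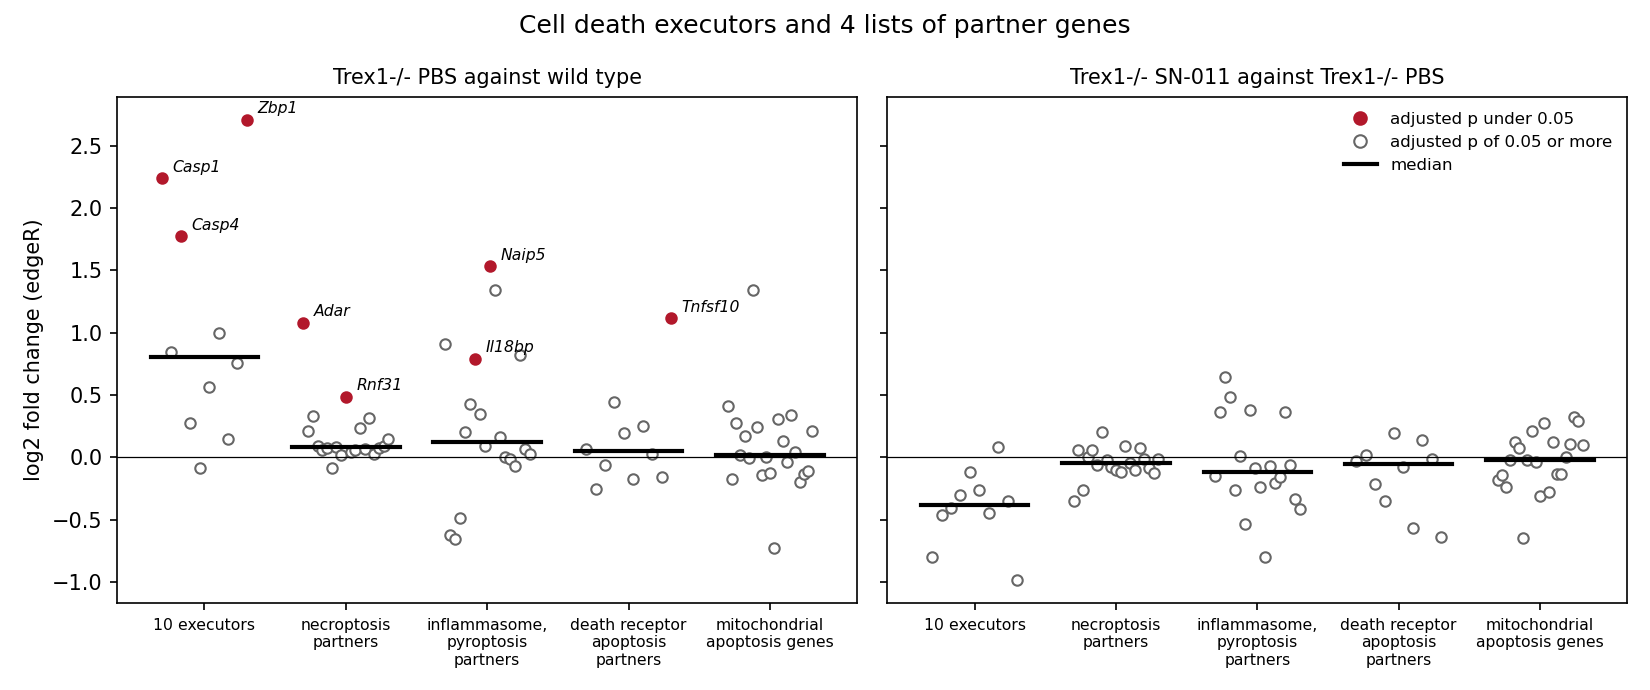
Log2 fold changes of the 10 executors and of the tested genes of 4 partner lists in Trex1-/- PBS against wild type (left panel) and SN-011 against PBS (right panel), with medians as bars and filled points where the edgeR adjusted p was under 0.05. Zbp1, Casp1 and Casp4 on the left lie above every partner gene, and no point is filled on the right.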

How the data were processed

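PolyA-selected kidney RNA was sequenced as read pairs in 9 mouse libraries. The authors trimmed the reads with Trimmomatic, aligned them with HISAT2 to mm10 and deposited raw counts of uniquely mapped pairs per Ensembl gene from featureCounts. Tool versions, annotation and strand setting are not given in the sources used here. Symbols and positions came from GENCODE vM21 (GRCm38) for 54495 of 54532 identifiers. The other 37 had no match.

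In R 4.3.3, edgeR 4.0.16 filterByExpr (minimum count 10, minimum total 15) kept 16646 genes. TMM scaling and 1 quasi-likelihood fit of all 9 libraries, with a mean per group, gave the 3 comparisons. CPM used TMM-scaled library sizes, except for Y-linked transcripts and Xist. RPKM divided CPM by the union of annotated exons. A gene was called at a Benjamini-Hochberg adjusted p under 0.05. The steps were tested on simulated data. The alternatives included DESeq2 1.42.0 and leaving out each library.

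Named genes were the 10 members, called partners, Tnf, Fasl, Fadd, Cflar, Pycard, Nlrp3, Gsdme, Il1b, Il18, and for each called member the 3 genes of highest Pearson's r of log2 CPM (prior count 2) with a mean of at least 1 CPM. Partners named for an extreme value were chosen after their values were seen. The members and lists were chosen with earlier results of these data known. The 2 restrictions to libraries with Y-linked transcripts or with Xist were chosen after seeing the data.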

Additional observations from a re-analysis of the deposited data

How the results depend on the processing

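Over the alternatives, 476 of 520 member log2 fold changes kept their sign and their side of the threshold, 25 lost and 7 gained the call, and 12 turned sign. Fas turned to 0.088 (without wild-type replicate 1) and 0.018 (libraries with Y-linked transcripts) in Trex1-/- PBS against wild type, to 0.10 (Y-linked term), 0.10 (without SN-011 replicate 1) and 0.44 (Y-linked transcripts) in SN-011 against PBS, and to 0.0067 (without SN-011 replicate 1) and 0.46 (Y-linked transcripts) in SN-011 against wild type. Casp8 turned there to 0.02 (without wild-type replicate 3), 0.073 (without SN-011 replicate 1) and 0.0037 (Xist), and in SN-011 against PBS Ripk1 turned to -0.0053 (without PBS replicate 3) and Mlkl to 0.021 (Y-linked transcripts). With a library left out, Fas ran from -0.20 to 0.088, -0.49 to 0.096 and -0.58 to 0.0067 in the 3 comparisons, Ripk1 from -0.0053 to 0.15 in SN-011 against PBS and Casp8 from -0.10 to 0.073 in SN-011 against wild type. The cause was not tested.

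In Trex1-/- PBS against wild type, 3 members were called, 6 by DESeq2's Wald test and 3 to 4 with a library left out. In SN-011 against PBS, 0 were called, 1 with no filter. In SN-011 against wild type, 3 were called, 0 with only the 6 libraries or with Y-linked transcripts, 1 with Xist, and 0 to 3 with a library left out.

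Partner calls in Trex1-/- PBS against wild type were 5, 2 with the Y-linked term or Y-linked transcripts only, and 2 to 5 with a library left out. In SN-011 against PBS they were 0, 2 by DESeq2's Wald test, 1 by edgeR's exact test and 1 with no filter. In SN-011 against wild type they were 1, then 5 by DESeq2's Wald test, 4 with the Y-linked term, 2 by the exact test, 2 with no filter, 0 with Y-linked transcripts only, and 0 to 2 with a library left out.

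Over all genes, 313 were called in Trex1-/- PBS against wild type, 707 with no filter, 726 by DESeq2's Wald test, 683 by the exact test, 751 with only the 6 libraries, 198 with the Y-linked term, and 153 to 774 with a library left out. In SN-011 against PBS, 0 were called, 127 with no filter, 183 by DESeq2's Wald test, 127 by the exact test, 107 with Y-linked transcripts only, and 0 to 519 with a library left out, with 519 without SN-011 replicate 2 and 22 without SN-011 replicate 3. In SN-011 against wild type, 213 were called, 607 with no filter, 806 by DESeq2's Wald test, 601 by the exact test, 43 with only the 6 libraries, 656 with the Y-linked term, 356 with Y-linked transcripts only, 461 with Xist only, and 38 to 376 with a library left out.

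With the replicate number as a block, 3, 0 and 3 members, 5, 0 and 1 partners and 312, 0 and 231 of all genes were called in the 3 comparisons. Deviations of same-numbered libraries had correlations across genes of -0.29 to 0.24, over 0.1 in 5 of 9 pairs (in all 3 of replicate 1), and 3 of 9 libraries were closest to their own number in both other groups. No source ties the numbers to litters or days, and pairing was not assumed. The lowest and highest counts over all genes came without PBS replicate 2 (153), SN-011 replicate 2 (774 and 376) and wild-type replicate 1 (38). Where a fit left an arm with 1 library, that library was assumed to vary like the others. Depth limits Ripk3 (249 counts in all) and Casp1 (13 to 26 counts in the wild type).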
